A study of Rattus norvegicus with 15 samples.

Results

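Synovial tissue of rats with adjuvant-induced arthritis (AIA) that were treated with an antibody against cANGPTL4 was compared with synovium of untreated control rats, to describe what still differed from healthy tissue under treatment. The comparison holds 10 of the 15 libraries of the study, antibody replicates 3, 9, 10, 12 and 21_8 and control replicates 2, 7, 11, 14 and 17, chosen by their labels. Control rats had neither adjuvant nor antibody. The antibody rats had 100 uL of complete Freund's adjuvant, an oil with killed mycobacteria, put into the skin of the tail, and were then given the anti-cANGPTL4 antibody into the peritoneum, 2 doses a week. Another 5 rats had the adjuvant and no antibody (the AIA group), and their values are given beside those of the treated rats where they help to place them. All rats are labelled wild type, and their strain, age and sex, the day of sampling and any isotype or vehicle antibody are not given in the labels. Because treated rats differ from controls by both adjuvant and antibody, the effects of the 2 agents cannot be told apart in this comparison. Antibody replicate 21_8 bears 2 numbers in its title, and the labels leave unsaid whether it is 1 rat or a pool.

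The synovium lines the joint with a thin layer of macrophages and lining fibroblasts that secrete lubricin and hyaluronan, above a sublining of fibroblasts, blood and lymph vessels, fat and nerves. In adjuvant arthritis, venules take on an adhesive state, leukocytes enter, and cytokines acting through NF-kappaB, interferon and STAT3 pathways drive acute phase and antigen processing genes. ANGPTL4 is a secreted inhibitor of lipoprotein lipase whose C-terminal part, cANGPTL4, is released by cleavage and is known to bind integrins and matrix proteins. By its title, the study concerns protection of bone by the antibody.

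The 10 libraries held 31300546 to 34084345 counts each. Spearman correlations across genes were 0.978 to 0.99 between control libraries and 0.983 to 0.993 between antibody libraries. The first principal component, with 35.5% of the variance, separated the groups, with control libraries at -48.5 to -11.7 and antibody libraries at 14.9 to 39.5. Prg4, which encodes lubricin and marks the synovial lining, was at 711 to 2396 FPKM, a level per length of transcript and per sequencing depth, in these libraries. Control replicate 2 carried skeletal muscle transcripts, with Ckm, the muscle creatine kinase, at 1300 CPM, counts scaled to a common library size, against 0.0315 to 4.31 in the other controls and 0.0951 to 2.26 in the antibody libraries. Muscle genes are therefore set apart below, and counts are also given without control replicate 2. AIA replicate 19 carried muscle transcripts too, with Ckm at 2200 CPM against 0.164 to 3.46 in the other AIA libraries. It was kept in all AIA values and in the fit over all 15 libraries.

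Of 15620 genes with enough counts to be tested, 1865 (11.9%) were called different between antibody-treated arthritis and control, which means an adjusted p under 0.05 by edgeR's quasi-likelihood test. The antibody group was higher for 807 genes (5.17%) and lower for 1058 (6.77%). At least a 2-fold difference was reached by 188 of the higher genes (1.2% of the genes tested) and 292 of the lower genes (1.87%). The 5 antibody and 5 control libraries did not overlap for 1512 genes, 9.68% of those tested, of which 671 were higher (4.3%) and 841 lower (5.38%). Without control replicate 2 the counts were 578 higher and 750 lower, without antibody replicate 10 they were 522 and 676, and without antibody replicate 21_8 they were 588 and 672. Among 53 gene lists of pathways and cell types, those of neutrophils, blood vessels, interferon and NF-kappaB held the most called members on the higher side. Lists of macrophages, lining fibroblasts, matrix, skeletal muscle and TGF-beta held the most on the lower side.

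**Figure D1:**
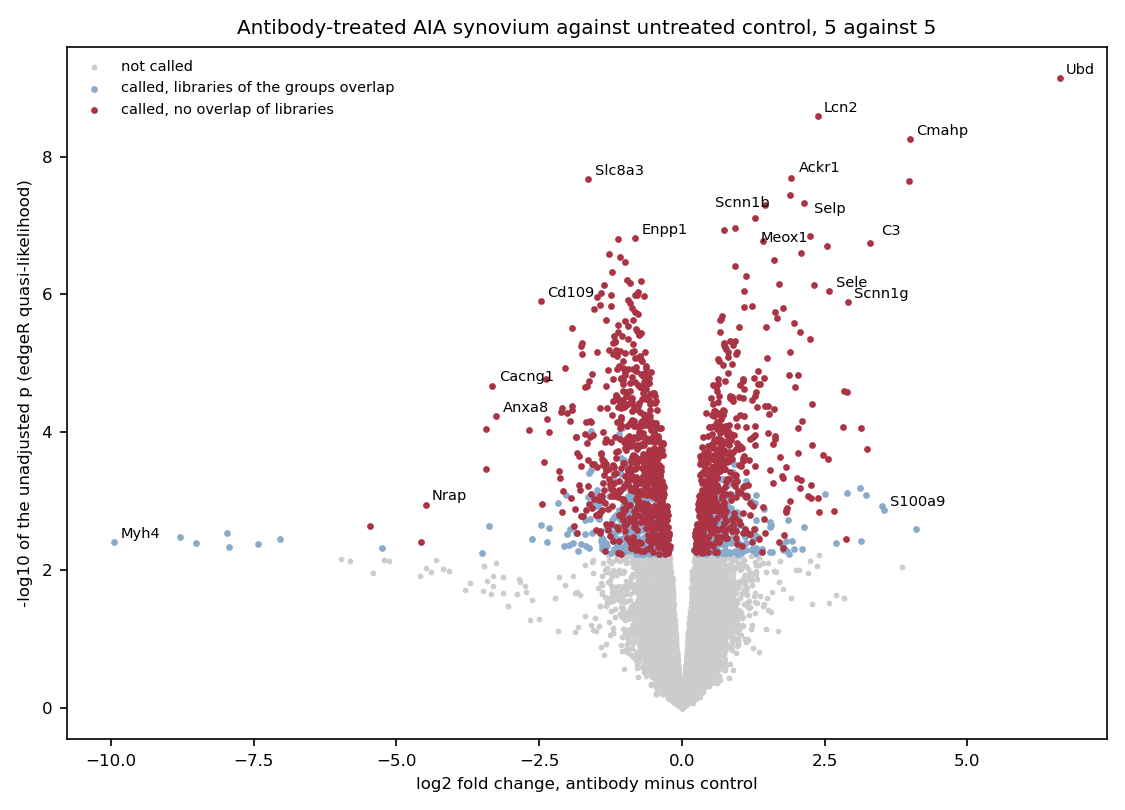
Log2 fold change of antibody-treated arthritis against control (x axis) and -log10 of the unadjusted p of edgeR's quasi-likelihood test (y axis) for each of the 15620 genes tested, with n = 5 libraries a group. Red points are called genes whose libraries do not overlap between the groups, blue points are called genes with overlap and grey points were not called. Ubd lies farthest to the upper right, and the muscle genes Myh4 and Nrap lie far left at modest p.

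Angptl4, which encodes the protein that the antibody is raised against, was at 166, 251, 149, 263 and 190.1 CPM in the 5 control libraries in the order given above. In the antibody libraries it was at 553, 318, 289, 424 and 463 CPM. Each antibody library stood above each control library. The level in the antibody group was 2.005-fold that in control (log2 fold change 1.004 ± 0.20, SE, edgeR adjusted p = 0.00824), and the two-sided exact permutation test over 252 splits gave p = 0.0079, the smallest that 5 against 5 libraries can give. In the AIA libraries it ran from 155 to 586 CPM, a range that held each antibody library and overlapped with the control libraries. When all 15 libraries shared 1 fit, the same difference had an edgeR adjusted p of 0.0601 and was not called. These are transcript levels, and the protein that the antibody binds was not measured here.

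The leading higher genes and several NF-kappaB genes have RefSeq promoter windows that can be set beside their levels. NF-kappaB is the transcription factor family of tumour necrosis factor and interleukin-1 signalling, and the interferon-stimulated response element (ISRE) is bound by STAT and IRF factors. Of the genes called higher, 625 matched the RefSeq promoter table of rat assembly GRCr8 by symbol. The NF-kappaB motif, spelled GGG, any 2 bases, TT, any base and CC, was searched on both strands of the 250 bases before the start of the gene. It was in 52 of these 625 windows (8.32%), in 34 of 814 windows of genes called lower (4.18%), in 4.7% of the 12094 windows of tested genes and in 4.28% of all 27457 windows. The ISRE motif, spelled GAAA, any 2 bases and GAAA, was in 5.6% of the windows of genes called higher, 1.6% of those called lower, 2.71% of those of tested genes and 3.29% of all windows. A STAT motif, spelled TTC, any 3 bases and GAA, was in 6.56% of the windows of genes called higher, 4.79% of those called lower, 6.09% of those of tested genes and 7.52% of all. A CEBP motif, spelled TTGC, any 2 bases and AA, was in 9.76%, 6.88%, 7.58% and 9.2% of them. Of the 8 called-higher genes of the NF-kappaB list with a window, 6 held the NF-kappaB motif, and of the 9 of the interferon list, 5 held the ISRE motif. Both lists were made of known genes of these pathways. Their members that were not called were not counted, so the 6 and the 5 are no result about the called genes. No test was made of any of these shares, and a match is not evidence that a factor bound there.

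The windows of Ubd, Tap1, Cxcl1 and Tnfaip3, genes described below, are printed 5′ to 3′ in the direction of the gene, each ending at the base before the RefSeq start. They were chosen after the matches had been seen, as examples of windows that hold the letters. Capitals mark the matches, to NF-kappaB in all 4 and also to the ISRE on the reverse strand of Tap1, 121 bases before its start. The Ubd window also holds a CEBP match on the reverse strand, beginning 151 bases before the start and left in lower case. The Ubd NF-kappaB match begins 15 bases before the start, and that of Tap1 55 bases before it. Cxcl1 and Tnfaip3 hold a pair of matches each, beginning 102 and 84 bases and 67 and 55 bases before the start.
Ubd promoter (chr20:1392686-1392935, minus strand, GRCr8): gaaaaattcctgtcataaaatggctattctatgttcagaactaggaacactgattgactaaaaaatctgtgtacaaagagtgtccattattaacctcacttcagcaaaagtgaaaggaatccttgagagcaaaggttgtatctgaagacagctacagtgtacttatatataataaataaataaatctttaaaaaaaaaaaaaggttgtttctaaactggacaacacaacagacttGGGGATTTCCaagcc
Tap1 promoter (chr20:4668544-4668793, minus strand, GRCr8): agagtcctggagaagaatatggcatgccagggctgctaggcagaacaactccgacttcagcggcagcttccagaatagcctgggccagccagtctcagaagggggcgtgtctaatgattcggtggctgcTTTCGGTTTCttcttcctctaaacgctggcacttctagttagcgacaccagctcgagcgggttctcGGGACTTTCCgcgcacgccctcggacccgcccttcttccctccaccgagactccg
Cxcl1 promoter (chr14:17479322-17479571, minus strand, GRCr8): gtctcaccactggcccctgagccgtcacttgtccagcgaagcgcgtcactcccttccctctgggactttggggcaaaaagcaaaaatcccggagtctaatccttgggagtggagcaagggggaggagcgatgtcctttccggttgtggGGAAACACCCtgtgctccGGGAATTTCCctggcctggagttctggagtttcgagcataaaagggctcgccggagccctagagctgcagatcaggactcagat
Tnfaip3 promoter (chr1:15543980-15544229, minus strand, GRCr8): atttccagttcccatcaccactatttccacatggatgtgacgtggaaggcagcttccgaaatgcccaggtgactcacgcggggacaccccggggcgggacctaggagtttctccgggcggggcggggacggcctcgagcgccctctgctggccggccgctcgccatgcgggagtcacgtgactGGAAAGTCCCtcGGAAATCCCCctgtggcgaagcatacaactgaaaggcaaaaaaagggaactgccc

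Ubd, which encodes the ubiquitin-like modifier FAT10 that is induced by tumour necrosis factor and interferon gamma, had the largest rise among the genes named by the rule. Ubd was at 0.155, 0.177, 0.208, 0 and 0.395 CPM in the control libraries and at 13.9, 25.5, 21.6, 18.1 and 16.3 CPM in the antibody libraries. It was thus close to the detection limit in control, where 1 library had no read, and present in each antibody library. Its log2 fold change was 6.62 ± 0.39 (SE, edgeR adjusted p = 1.14e-05), a value that rests on few control reads. The AIA libraries were at 4.85 to 8.75 CPM, below each antibody library, and in the fit over all 15 libraries antibody against AIA was 1.41 on the log2 scale (edgeR adjusted p = 0.0204).

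Called interferon-stimulated genes were higher, and most members of the list were not called. Of 24 names in the list, 22 were tested, 10 were called higher and 0 lower, and the median log2 fold change over the tested members was 0.47, beside -0.00073 over all genes tested. Leaving out single libraries gave 7 to 11 higher. Ubd, described above, is among the 10 and, being near the floor in control, passes the count filter mostly through the antibody libraries. Tap1, a subunit of the peptide transporter that feeds MHC class I, was at 49.1, 55.2, 56.7, 51 and 49.9 CPM in control and 90.1, 69.7, 87.4, 80.6 and 88.9 CPM in the antibody libraries, with no overlap. It rose by 0.67 ± 0.084 on the log2 scale (SE, edgeR adjusted p = 0.000756). Psmb8, an immunoproteasome subunit, went from 32–47.8 to 51.9–67.2 CPM (log2 fold change 0.66 ± 0.11, edgeR adjusted p = 0.00326), its lowest antibody library being replicate 9. Other called members were Irf1, Rsad2, Ifi27, Gbp2, Gbp5 and Psmb9, the last of which lies head to head with Tap1. With all 15 libraries in 1 fit, 3 of 22 members were called higher in AIA against control and 3 higher in antibody against AIA. The AIA comparison shares its control libraries with the antibody comparison. Tap1 was 0.34 higher in AIA than in control and 0.33 higher in antibody than in AIA on the log2 scale (edgeR adjusted p = 0.0252 and 0.0423).

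NF-kappaB targets and feedback genes were higher for 9 of 19 tested members (20 names) and lower for 2, with a median log2 fold change of 0.33. Icam1, the endothelial and stromal ligand of leukocyte integrins, was at 57.3, 82.3, 69.9, 73.2 and 62.7 CPM in control and 115, 137, 105, 131 and 135 CPM under treatment, and the groups did not overlap. It rose 1.8-fold (log2 fold change 0.85 ± 0.11, edgeR adjusted p = 0.000906). Relb, a subunit of the alternative NF-kappaB pathway, rose from 10.3–15.3 to 17.5–29.4 CPM (0.79 ± 0.15 on the log2 scale, edgeR adjusted p = 0.00526). Il1rn, the secreted antagonist of the interleukin-1 receptor, rose 3.01-fold from 0.624–1.24 to 1.43–3.96 CPM (edgeR adjusted p = 0.00557). The AIA libraries had 3.94 to 7.01 CPM of Il1rn, and antibody against AIA was -0.98 on the log2 scale (edgeR adjusted p = 0.0379).

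Genes that shut NF-kappaB signalling off or form its inducible subunits were among the 9, and 3 of them are given because of their promoter windows, a choice made after their values were seen. Tnfaip3, the deubiquitinase A20, had 12.9 to 18.8 CPM in control and 19.6 to 26.3 under treatment (log2 fold change 0.55 ± 0.12, edgeR adjusted p = 0.0115). Nfkb2, the precursor of p52, had 33.3 to 39.4 and 42.8 to 58.8 CPM (0.51 ± 0.09, edgeR adjusted p = 0.00411). Bcl3, a nuclear partner of p50 and p52, had 15.2 to 28.4 and 23.9 to 38.5 CPM overlapping through control replicate 7 (0.64 ± 0.18, edgeR adjusted p = 0.04), and it was not called in 7 of the 10 fits that left out 1 library (edgeR adjusted p up to 0.0957) or against a fold of 1.2. The windows of Nfkb2 and Bcl3 hold the NF-kappaB letters beginning 20 and 38 bases before the start. The 2 members called lower were Tnfaip2 and Ptx3, neither of which was called without control replicate 2, 11 or 14 or without antibody replicate 3, 10 or 21_8.

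Several acute phase genes were called higher, and complement genes were called in both directions. Lcn2, a siderophore-binding protein of the acute phase, was at 8.43, 14.7, 12.2, 12.9 and 9.77 CPM in control and 62.9, 67.7, 56.9, 46.3 and 68.4 CPM in the antibody libraries. The lowest antibody library was more than 3-fold above the highest control library. Its log2 fold change of 2.38 ± 0.16 (SE) had the second lowest p of all genes (edgeR adjusted p = 2.02e-05). Serpina3n, an acute phase protease inhibitor, rose 4.27-fold from 97.5–185 to 452–702 CPM (edgeR adjusted p = 0.000202).

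Of 16 tested genes of the STAT3 and acute phase list (19 names), 4 were higher and 0 lower, namely Lcn2, Hp, Cp and Il6st, with a median log2 fold change of 0.37. Hp, haptoglobin, was at 23.9, 31.1, 32.2, 40.9 and 41.3 CPM in control and 43.7, 108, 140.3, 97.8 and 98.4 in the antibody libraries (2.88-fold, edgeR adjusted p = 0.00325). Antibody replicate 3 was close to the highest control library and the other 4 were well above it, and Hp was not called in the fit over all 15 libraries. Cp, the copper oxidase ceruloplasmin, rose 1.61-fold (log2 0.69 ± 0.083, edgeR adjusted p = 0.000603). Il6st, the gp130 receptor chain shared by the interleukin-6 family, rose from 869–1015 to 1341–1769 CPM (1.72-fold, edgeR adjusted p = 0.00103).

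C3, the central complement protein, was at 7.81, 8.05, 6.62, 4.92 and 10.6 CPM in control and 46.1, 98.8, 118, 39.5 and 72.6 CPM in the antibody libraries. Each antibody library was far above the control range, and the AIA libraries reached 66.6 to 174 CPM. The rise was 9.84-fold (log2 fold change 3.30 ± 0.32, SE, edgeR adjusted p = 0.000167). Cfb, factor B of the alternative pathway, rose 2.02-fold from 40.7–61.1 to 72.2–119.8 CPM (edgeR adjusted p = 0.00187). Cd55, which restrains complement on the cell surface and also marks lining fibroblasts, fell by 1.21 on the log2 scale, from 102–306 to 65.3–112 CPM, with overlap (edgeR adjusted p = 0.0086). Over the whole list of 21 names, 18 were tested, 4 were higher (C3, Cfb, Cfd and Cfp) and 4 lower (C1qa, C1qb, C1qc and Cd55), with a median of -0.014. The lower count moved with single libraries, to 1 without antibody replicate 10 or 21_8, to 2 without antibody replicate 3 or control replicate 2, 11 or 14, and to 8 without antibody replicate 12.

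**Figure D2:**
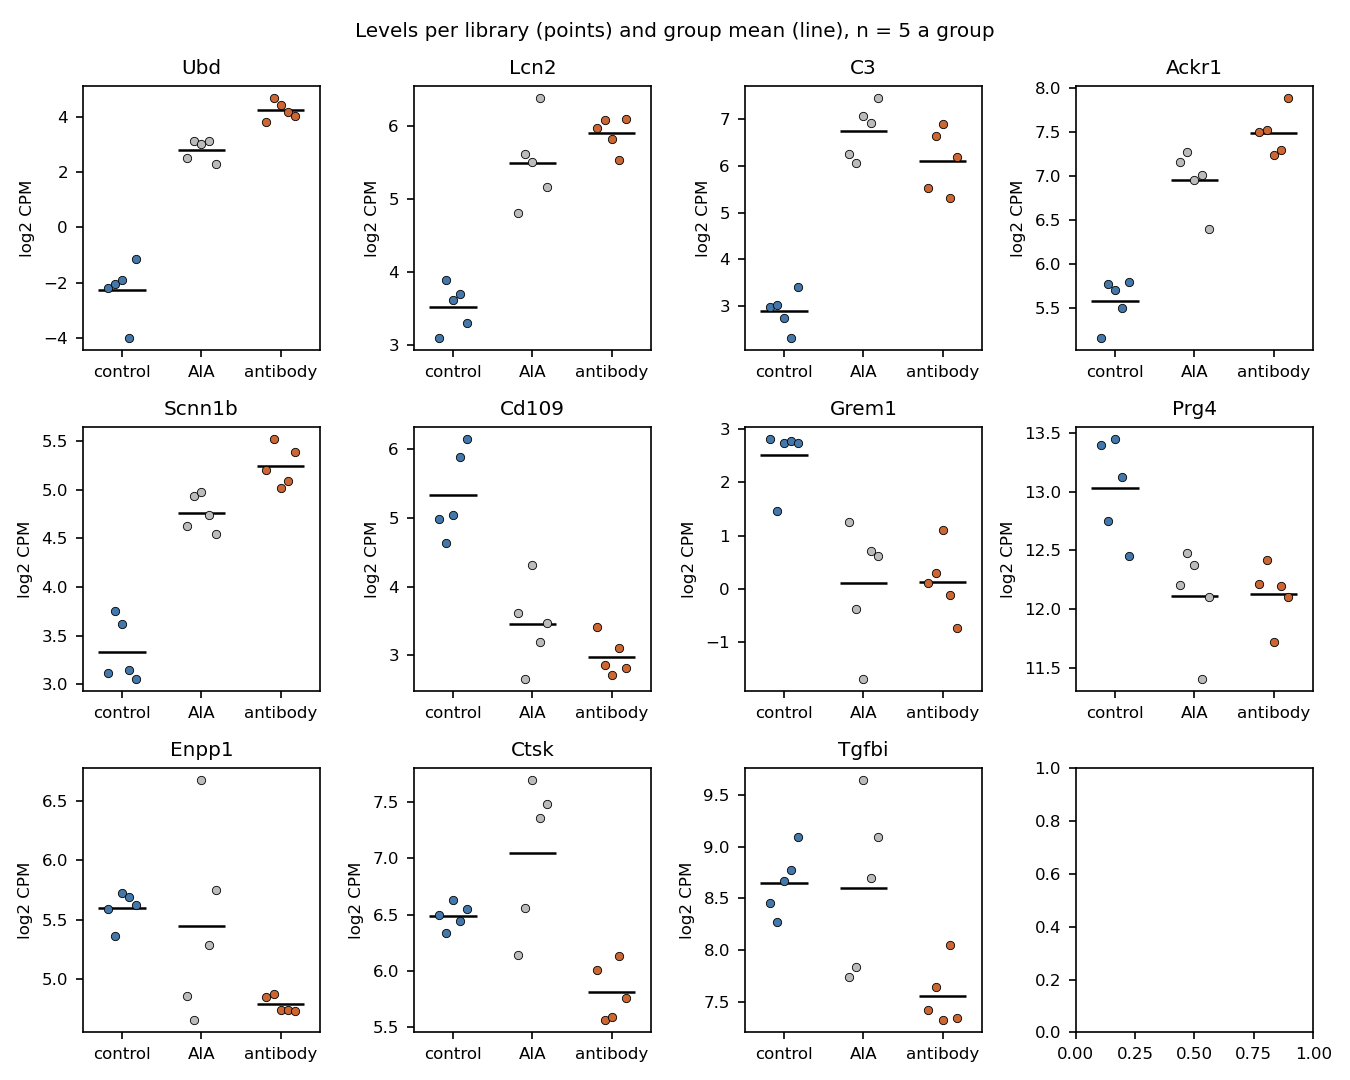
Log2 CPM (y axes, each with its own range, not starting at 0) of Ubd, Lcn2, C3, Ackr1, Scnn1b, Cd109, Grem1, Prg4, Enpp1, Ctsk and Tgfbi. Points are the libraries of control (blue), AIA (grey) and antibody (orange), with the group mean as a line, n = 5 a group. Ubd, Lcn2, C3, Ackr1 and Scnn1b are separated from control in both adjuvant groups, whereas Enpp1 and Ctsk have their lowest group mean in the antibody group.

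Venule endothelium showed one of the most regular differences. Ackr1, the atypical chemokine receptor of venules and red cells, was at 35.6, 54.7, 52, 45.2 and 55.7 CPM in control and 182, 184, 151, 158 and 237 CPM in the antibody libraries. Its lowest antibody library was more than 2-fold above its highest control library, and it rose 3.74-fold (log2 fold change 1.90 ± 0.15, SE, edgeR adjusted p = 5.92e-05). Selp, P-selectin, which captures rolling leukocytes, was at 27.5, 49.6, 46.4, 44.4 and 34.4 CPM in control and 160.2, 227, 149, 145 and 207 CPM under treatment (4.38-fold, edgeR adjusted p = 8.63e-05). Sele, E-selectin, the cytokine-induced selectin, rose 5.98-fold from 4.87–17 to 57.8–97.8 CPM (edgeR adjusted p = 0.000407). Plvap, which forms the diaphragms of fenestrae and caveolae, rose 2.12-fold from 431–549.5 to 869–1338 CPM (edgeR adjusted p = 0.000487). None of these 4 genes overlapped between the groups.

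All 18 names of the endothelium list were tested, and 9 were higher and 0 lower, with a median log2 fold change of 0.49. Besides the 4 above these were Pecam1, Vwf, Eng, Esam and Sox18. Leaving out single libraries gave 7 to 10 higher. In a bulk tissue, fewer or more cells of a type and less or more RNA per cell cannot be told apart, which applies to each cell type list here. A list score averages the log2 CPM of tested members and subtracts the control mean. For endothelium it was 0.52 to 1.10 in the antibody libraries, -0.24 to 0.20 in control and 0.33 to 0.62 in AIA. In the fit over all 15 libraries 7 members were called higher in AIA against control and 0 were called in antibody against AIA.

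Basement membrane genes, which encode the sheet beneath endothelium and around fat and muscle cells, were higher for 5 of 15 members and lower for 0, with a median of 0.32. Col18a1, the collagen that yields endostatin, was at 203, 263, 218, 218 and 216 CPM in control and 375, 470, 404, 429 and 446 CPM in the antibody libraries. The groups did not overlap, although control replicate 7 stood above the other controls. The rise was 1.9-fold (log2 fold change 0.92 ± 0.095, edgeR adjusted p = 0.000253). Col15a1 rose 1.67-fold, the laminin chain gene Lamb1 1.6-fold and the perlecan gene Hspg2 1.49-fold (edgeR adjusted p = 0.000944, 0.00356 and 0.00535). Col4a1 was the other called member. The AIA libraries ran from 827 to 1027 CPM for Hspg2, and antibody against AIA was 0.37 on the log2 scale (edgeR adjusted p = 0.0466).

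Called genes of lymphatic endothelium were lower, whereas those of the endothelium list were higher. Of 8 names 7 were tested, 0 were higher and 4 lower, with a median of -0.87. Reln, reelin, which lymphatic endothelium secretes, was at 23.1, 31.2, 16.8, 21.6 and 19.1 CPM in control and 16.2, 16, 10.6, 11.1 and 10.7 CPM in the antibody libraries, without overlap. It fell by 0.79 on the log2 scale (edgeR adjusted p = 0.0156), and antibody against AIA was -0.62 (edgeR adjusted p = 0.0462). Mmrn1, multimerin 1, went from 9.98–15.2 to 4.12–8.43 CPM (log2 -0.97 ± 0.18, edgeR adjusted p = 0.0057). Ccl21, the chemokine that draws dendritic cells into lymphatics, went from 28.4–46.9 to 12.9–28.9 CPM with overlap (log2 -1.0 ± 0.22, edgeR adjusted p = 0.0119). Pdpn, podoplanin, shared with lining fibroblasts, was the fourth. The list score was -0.15 to 0.22 in control and -1.07 to -0.38 in the antibody libraries.

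VEGF and angiopoietin signalling genes were lower for 4 of 18 tested members (Vegfd, Nrp2, Apln and Esm1) and higher for 0, with a median of 0.018. These are ligands, receptors and tip cell genes of vessel growth, whereas the endothelium list holds markers of the vessel wall.

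Nearly all tested neutrophil genes were called higher in the antibody group. Of 16 names 10 were tested, 9 were called higher and 0 lower, and the median log2 fold change of the tested members was 2.76. A gene of this kind passes the count filter mostly through the group in which it is high, so the 9 are not 9 of all members. S100a9, a subunit of calprotectin, was at 0.341, 15.2, 1.49, 1.7 and 6.92 CPM in control and 129.8, 59.4, 81.3, 15.8 and 14.7 CPM in the antibody libraries. Control replicate 7 stood above antibody replicate 21_8, and the rise was 11.6-fold with a wide error (log2 fold change 3.54 ± 0.86, SE, edgeR adjusted p = 0.0199). S100a8, its partner subunit, rose by 3.51 ± 0.83 and Camp, the granule peptide cathelicidin, by 3.22 ± 0.73 on the log2 scale (edgeR adjusted p = 0.0186 and 0.0149). Outside the list, Fcnb, the lectin ficolin B of myeloid cells, rose from 0.921–1.62 to 2.03–11.8 CPM (edgeR adjusted p = 0.007). In the 15-library fit 6 of 12 tested neutrophil genes were higher between AIA and control, and between antibody and AIA 0 were higher and 1 lower.

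Called erythroid genes were higher too. Of 19 names 15 were tested, with 7 higher, 0 lower and a median of 1.31. Alas2, the erythroid enzyme of haem synthesis, was at 14.4, 11.8, 10.2, 15.3 and 13.1 CPM in control and 37.1, 92.8, 63, 49.1 and 30.9 CPM in the antibody libraries (4.2-fold, edgeR adjusted p = 0.000756), with no overlap. Hbb, a beta globin whose reads can be shared with its near-identical copies, rose 2.76-fold (edgeR adjusted p = 0.000687). The erythroid score was 0.64 to 1.84 in the antibody libraries, -0.33 to 0.51 in control and 0.59 to 2.22 in AIA. The neutrophil score was 1.85 to 3.93, -1.32 to 1.69 and 1.92 to 3.79 in the same order. How much blood or marrow the pieces held was not measured, and its part in the neutrophil, T cell and acute phase values was not tested.

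Lymphocyte genes of the T and NK list, with 15 of 25 names tested, gave 5 higher and 1 lower, with a median of 0.87. As with neutrophil genes, those near the floor in control pass the count filter mostly through the antibody libraries. The 5, the median and the score are therefore not those of all members. Tbx21, the T-bet factor of type 1 lymphocytes, was at 0.248, 0.236, 0.178, 0.063 and 0.311 CPM in control and 1.46, 0.45, 1.05, 0.646 and 0.666 CPM under treatment. These are low levels without overlap, and the log2 fold change was 2.01 ± 0.43 (edgeR adjusted p = 0.0108). Klrb1a, an NK cell receptor, rose by 1.82 ± 0.37 from 0.063–0.295 to 0.495–0.729 CPM (edgeR adjusted p = 0.0086). Lck, Gzma and Nkg7 were the other called genes and Cd4, which rat macrophages also express, was the lower one. The count fell to 3 higher without control replicate 7, 11 or 14 or antibody replicate 9, 10 or 12. The score was 0.53 to 0.94 in the antibody libraries, -0.55 to 0.38 in control and 1.55 to 1.92 in AIA. In the fit over all 15 libraries, AIA against control gave 18 of 20 higher and antibody against AIA gave 8 lower.

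**Figure D3:**
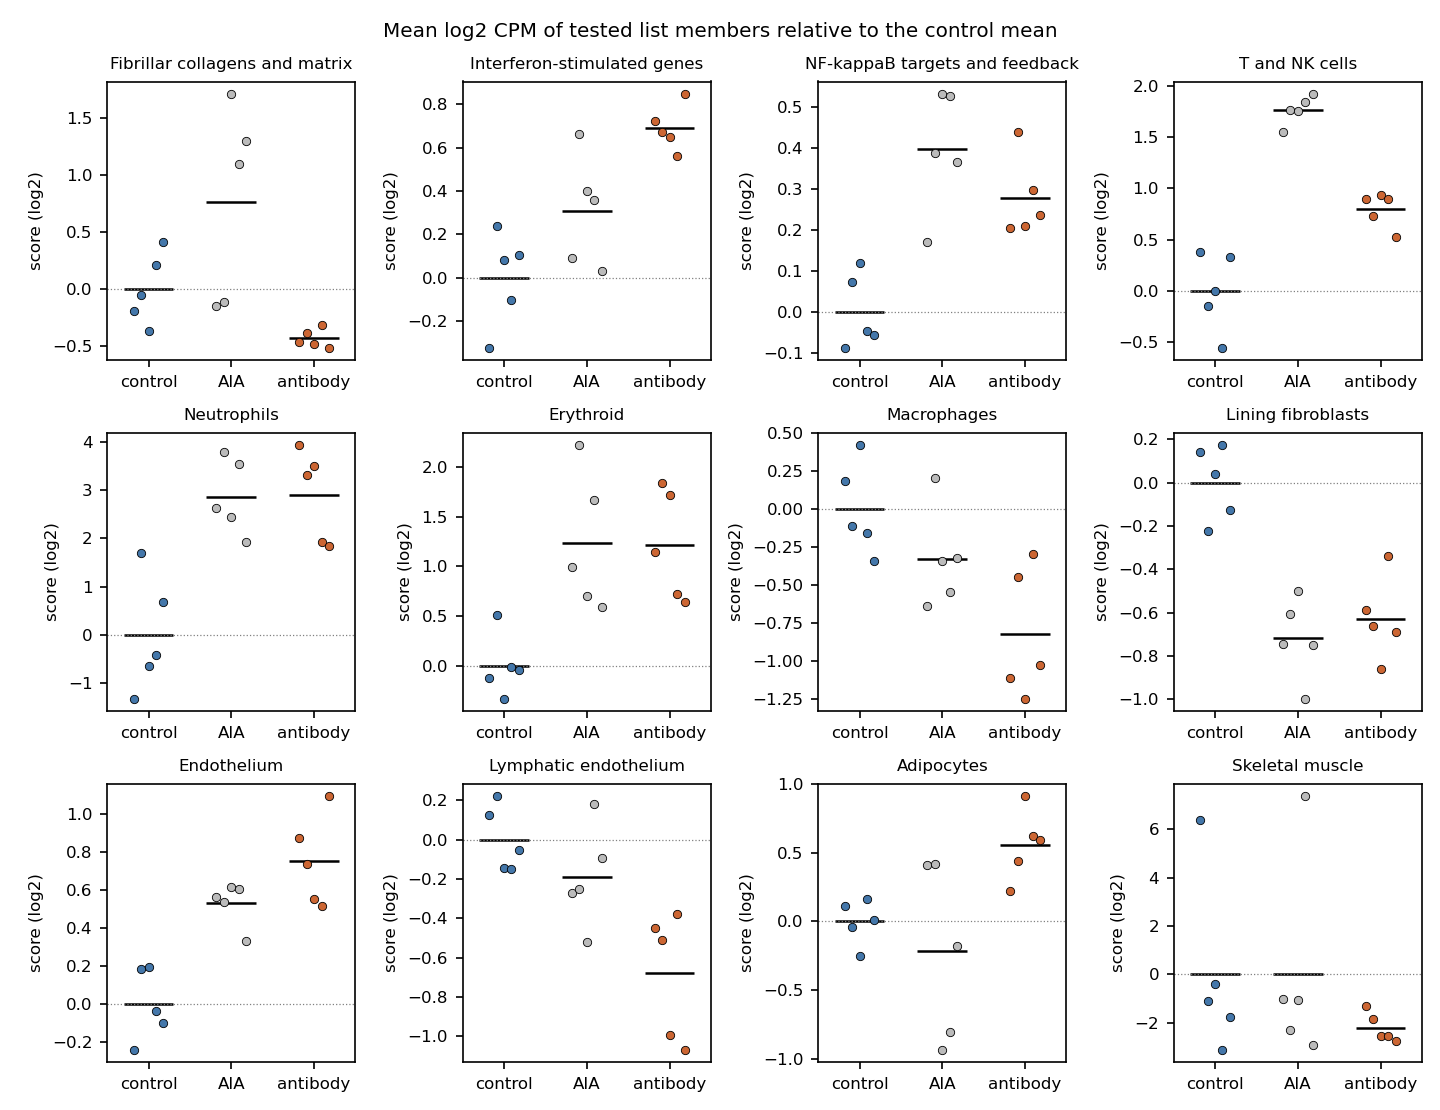
Scores of 12 gene lists, averages of log2 CPM over tested members minus the control mean (y axes), in each library of control, AIA and antibody, with the group mean as a line, n = 5 a group. Endothelium, neutrophil and interferon scores of the antibody libraries stand above control, lining fibroblast scores stand below it, and control replicate 2 stands alone among controls in the skeletal muscle score at 6.38. Members near the floor in control, such as most neutrophil genes and Ubd of the interferon list, pass the count filter mostly through the antibody libraries. Scores that hold them are not those of all members.

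Called macrophage genes were lower. Of 19 tested members (20 names) 10 were called lower and 0 higher, and the median log2 fold change was -0.78. Cd5l, a scavenger protein of resident macrophages, was at 51.2, 61.3, 98, 56.6 and 47.2 CPM in control and 8.27, 25.8, 11.6, 24.8 and 12.4 CPM in the antibody libraries. No library overlapped, and it fell by 1.93 on the log2 scale (3.8-fold lower, edgeR adjusted p = 0.00294). Gpnmb, a glycoprotein of lipid-laden macrophages and osteoclasts, fell from 213–475 to 90.1–185 CPM (log2 -1.10 ± 0.23, edgeR adjusted p = 0.0113). Outside the list, Siglec10, an inhibitory receptor for sialic acids, fell from 7.77–14.9 to 1.5–3.66 CPM (log2 -1.93 ± 0.24, edgeR adjusted p = 0.000702). Cd163, Mrc1, Folr2, Cd14, Cd68, Csf1r, Msr1 and C1qa were the other called members of the list. The count was 4 without antibody replicate 10 or 21_8 and 6 without control replicate 11, and the score of -0.34 to 0.42 in control and -1.25 to -0.30 in the antibody libraries overlapped slightly.

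AIA libraries had 227 to 399 CPM of Gpnmb and 6.02 to 8.17 CPM of Siglec10. Antibody against AIA was -1.14 and -1.27 on the log2 scale (edgeR adjusted p = 0.0187 and 0.0107). For Cd5l, AIA against control was -1.94 (edgeR adjusted p = 0.00478) and the antibody and AIA groups differed by 0.013 (edgeR adjusted p = 0.99).

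Lining fibroblast genes were lower for 7 of 12 members and higher for 0, with a median of -0.87. Prg4, lubricin, the joint lubricant, was at 10790, 6910, 11200, 8925 and 5600 CPM in control and 4754, 5460, 3360, 4701 and 4400 CPM in the antibody libraries. The highest antibody library lay just below the lowest control library, and the log2 fold change was -0.94 ± 0.20 (SE, 1.92-fold lower, edgeR adjusted p = 0.0112). Htra4, a secreted serine protease in the list, fell from 1554–2275 to 626–1035 CPM (log2 -1.17 ± 0.15, edgeR adjusted p = 0.000906). Dnase1l3, a secreted DNase, fell from 5.73–12.2 to 3.78–5.38 CPM (log2 -1.06 ± 0.22, edgeR adjusted p = 0.00881). Pdpn fell from 61.4–74.9 to 30.8–50.9 CPM (log2 -0.91 ± 0.14, edgeR adjusted p = 0.00185). Clic5, Hbegf and Cd55 were the others called. Leaving out any single library left 7 or 8 lower. The AIA libraries were at 2701 to 5689 CPM of Prg4, and in the fit over all 15 libraries 6 of 12 members were lower in AIA against control and 1 lower in antibody against AIA. That 1 was Pdpn, which differed by 0.024 between AIA and control and by -0.93 between antibody and AIA on the log2 scale (edgeR adjusted p = 0.96 and 0.0124).

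Sublining fibroblast genes were lower for 4 of 12 members and higher for 1, Col15a1, with a median of -0.19. Pdgfra, the receptor that marks these cells, was at 150.3, 112, 144, 150.4 and 211 CPM in control and 67.8, 86.1, 62.9, 95.8 and 69.6 CPM under treatment, without overlap. It fell by 1.01 on the log2 scale (edgeR adjusted p = 0.00279). Mfap5, a microfibril protein, fell from 35–86.1 to 19.5–31.1 CPM (log2 -1.15 ± 0.24, edgeR adjusted p = 0.00962). Thy1 and Pi16 were the others.

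Matrix genes were lower for 8 of 30 members and higher for 0, with a median log2 fold change of -0.40. Dcn, the collagen-binding proteoglycan decorin, was at 1653, 1277, 1775, 1907 and 2063 CPM in control and 739.5, 847, 702, 1087 and 903 CPM in the antibody libraries. It fell by 1.02 on the log2 scale with no overlap (2.03-fold lower, edgeR adjusted p = 0.00177). Fn1, fibronectin, was at 24450, 18260, 26220, 19640 and 14520 CPM in control and 9534, 13680, 8812, 12590 and 9405 CPM under treatment. It too did not overlap (1.91-fold lower, edgeR adjusted p = 0.0093). Fap, a membrane protease of activated fibroblasts, fell from 262–420.1 to 141–259 CPM (log2 -0.94 ± 0.17, edgeR adjusted p = 0.00497). Tnc, tenascin C, an adhesion-modulating protein of injured tissue, fell by 1.06 with overlap (edgeR adjusted p = 0.00975). Col14a1, Bgn, P4ha1 and Plod2 made up the 8. The collagen chain genes Col1a1 and Col3a1 were not called, at log2 fold changes of -0.53 ± 0.28 and -0.46 ± 0.26 (edgeR adjusted p = 0.238 and 0.275). With all 15 libraries in 1 fit, AIA against control gave 10 of 30 higher and 1 lower, and antibody against AIA gave 19 lower and 0 higher. The AIA libraries were split in this list. Their matrix score was -0.15 and -0.12 in replicates 5 and 13, within the control range of -0.37 to 0.41. It was 1.71, 1.09 and 1.29 in AIA replicates 18, 19 and 23, and -0.52 to -0.31 in the antibody libraries.

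A few genes of matrix proteins and collagen modification outside that list, taken from the rule for named genes and not from a list of their own, were called lower, while others outside it, among them Col18a1 and Hspg2, were called higher. Comp, cartilage oligomeric matrix protein, was at 159.6, 76.6, 92.2, 128 and 239 CPM in control and 29.7, 51.4, 34.2, 52.9 and 49.9 CPM in the antibody libraries, and fell 3.19-fold (edgeR adjusted p = 0.00376). Thbs4, thrombospondin 4 of tendon and vessel matrix, had a log2 fold change of -0.82 ± 0.17 against control and -2.82 against AIA (edgeR adjusted p = 0.0112 and 0.0148). Against control it was not called in the fit over all 15 libraries (edgeR adjusted p = 0.371). Its AIA libraries were at 24.5, 35.1, 344, 83 and 153 CPM, beside 26.7 to 34.7 CPM in control. Tnr, tenascin R, fell from 4.82–13.4 to 0.48–3.06 CPM (log2 -2.37 ± 0.40, edgeR adjusted p = 0.00356). Egfl6, a matrix protein with epidermal growth factor repeats, fell from 4.28–20.7 to 1.33–3.75 CPM (log2 -2.16 ± 0.44, edgeR adjusted p = 0.00915). Colgalt2, which adds galactose to collagen, fell from 50.6–60.1 to 19.7–30.4 CPM with tight groups (log2 -1.09 ± 0.11, edgeR adjusted p = 0.000214).

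Among proteases and their inhibitors, Adamts9, which cleaves versican and aggrecan, rose from 39.5–67.1 to 69.3–127 CPM (log2 0.71 ± 0.17, edgeR adjusted p = 0.0189). Its AIA level was 44.1 to 64.8 CPM, and antibody against AIA was 0.70 (edgeR adjusted p = 0.0293). Mmp16, a membrane-bound metalloproteinase, fell by 1.42 from 2.88–6.52 to 0.959–2.16 CPM (edgeR adjusted p = 0.00697). Reck, a membrane inhibitor of metalloproteinases, fell from 61.6–89.8 to 33.3–44.6 CPM and Serpine2, an inhibitor of thrombin and plasminogen activators, from 114–146 to 62.5–83.4 CPM (edgeR adjusted p = 0.00117 and 0.000357). Over the lists, metalloproteinases and aggrecanases gave 2 higher and 3 lower of 19 tested, and protease inhibitors 2 higher and 3 lower of 12. AIA against control gave 9 higher and 0 lower of the 19 in the fit over all 15 libraries.

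Grem1, gremlin 1, a secreted antagonist of bone morphogenetic proteins (BMPs), was at 6.95, 2.68, 6.59, 6.81 and 6.61 CPM in control and 1.02, 1.17, 2.08, 0.861 and 0.539 CPM under treatment. Control replicate 7 was the lowest control yet above each antibody library, and Grem1 was 5.23-fold lower (log2 fold change -2.39 ± 0.35, SE, edgeR adjusted p = 0.00173). Dkk3, of the dickkopf family, fell by 0.90 on the log2 scale from 30.6–57 to 17–24.2 CPM (edgeR adjusted p = 0.00583), while AIA libraries reached 29.9 to 98 CPM and antibody against AIA was -1.57 (edgeR adjusted p = 0.0124). Of 20 tested BMP and Wnt antagonists 4 were called lower, Fstl1 among them, beside 0 higher and a median of -0.18.

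Of 20 members of the TGF-beta list 7 were lower and 2 higher, with a median of -0.18. Tgfb2, a ligand, went from 35.5–46.4 to 19.1–25.3 CPM and Ltbp4, a latency protein that tethers the ligand to matrix, from 579.8–677 to 309–398 CPM (edgeR adjusted p = 0.00071 and 0.000552). Tgfbi, a matrix protein induced by TGF-beta, was at 351, 309, 406, 437 and 546 CPM in control and 171, 200.2, 160.1, 265 and 163 CPM under treatment. It fell by 1.10 without overlap (edgeR adjusted p = 0.00251). Tgfb3, Tgfbr1, Smad3 and Ccn2 were the other lower members, and Ltbp2 and Eng were higher. Outside the list, Cd109, a membrane co-receptor of TGF-beta, fell from 24.7–71 to 6.52–10.6 CPM and was 5.51-fold lower (log2 -2.46 ± 0.28, edgeR adjusted p = 0.000452).

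Integrin subunits, the receptors of matrix and of cANGPTL4 among others, were lower for 6 of 22 tested members and higher for 1, with a median of -0.31. Itga11, which binds fibrillar collagen, was at 17.5, 16.7, 20.3, 41.5 and 54.2 CPM in control and 7.89, 6.69, 5.44, 10 and 4.66 CPM in the antibody libraries, 4.34-fold lower without overlap (edgeR adjusted p = 0.00304). Itga10, another collagen receptor chain, fell from 5.46–8.07 to 2.66–3.44 CPM, and antibody against AIA was -0.92 (edgeR adjusted p = 0.000477 and 0.0267). Itgb8, which activates TGF-beta, fell by 1.04 on the log2 scale (edgeR adjusted p = 0.00249). Itga2, Itgav and Itgb5 were the other lower ones and Itga7, a laminin receptor of muscle, was the higher one, called in 3 of the 10 fits that left out a library.

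Insulin-like growth factor (IGF) genes gave 3 lower and 1 higher of 13 tested, and 5 lower without antibody replicate 12. Igfbp6, a binding protein of IGF-II, fell by 1.81 from 96.4–378 to 41.9–73.4 CPM, and Igfbp7, made by vessels, rose by 0.64 ± 0.11 from 744–925 to 1128–1464 CPM (edgeR adjusted p = 0.0071 and 0.0032). Hyaluronan genes gave 3 lower of 14, among them Cd44, the hyaluronan receptor, which fell from 114–183 to 65.1–101 CPM (log2 -0.95 ± 0.15, edgeR adjusted p = 0.00216). Has2 and Ugdh, which make hyaluronan and its precursor, were the others. The hyaluronan count was 1 without antibody replicate 10 or 21_8 or control replicate 14, and 5 without antibody replicate 12.

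**Figure D4:**
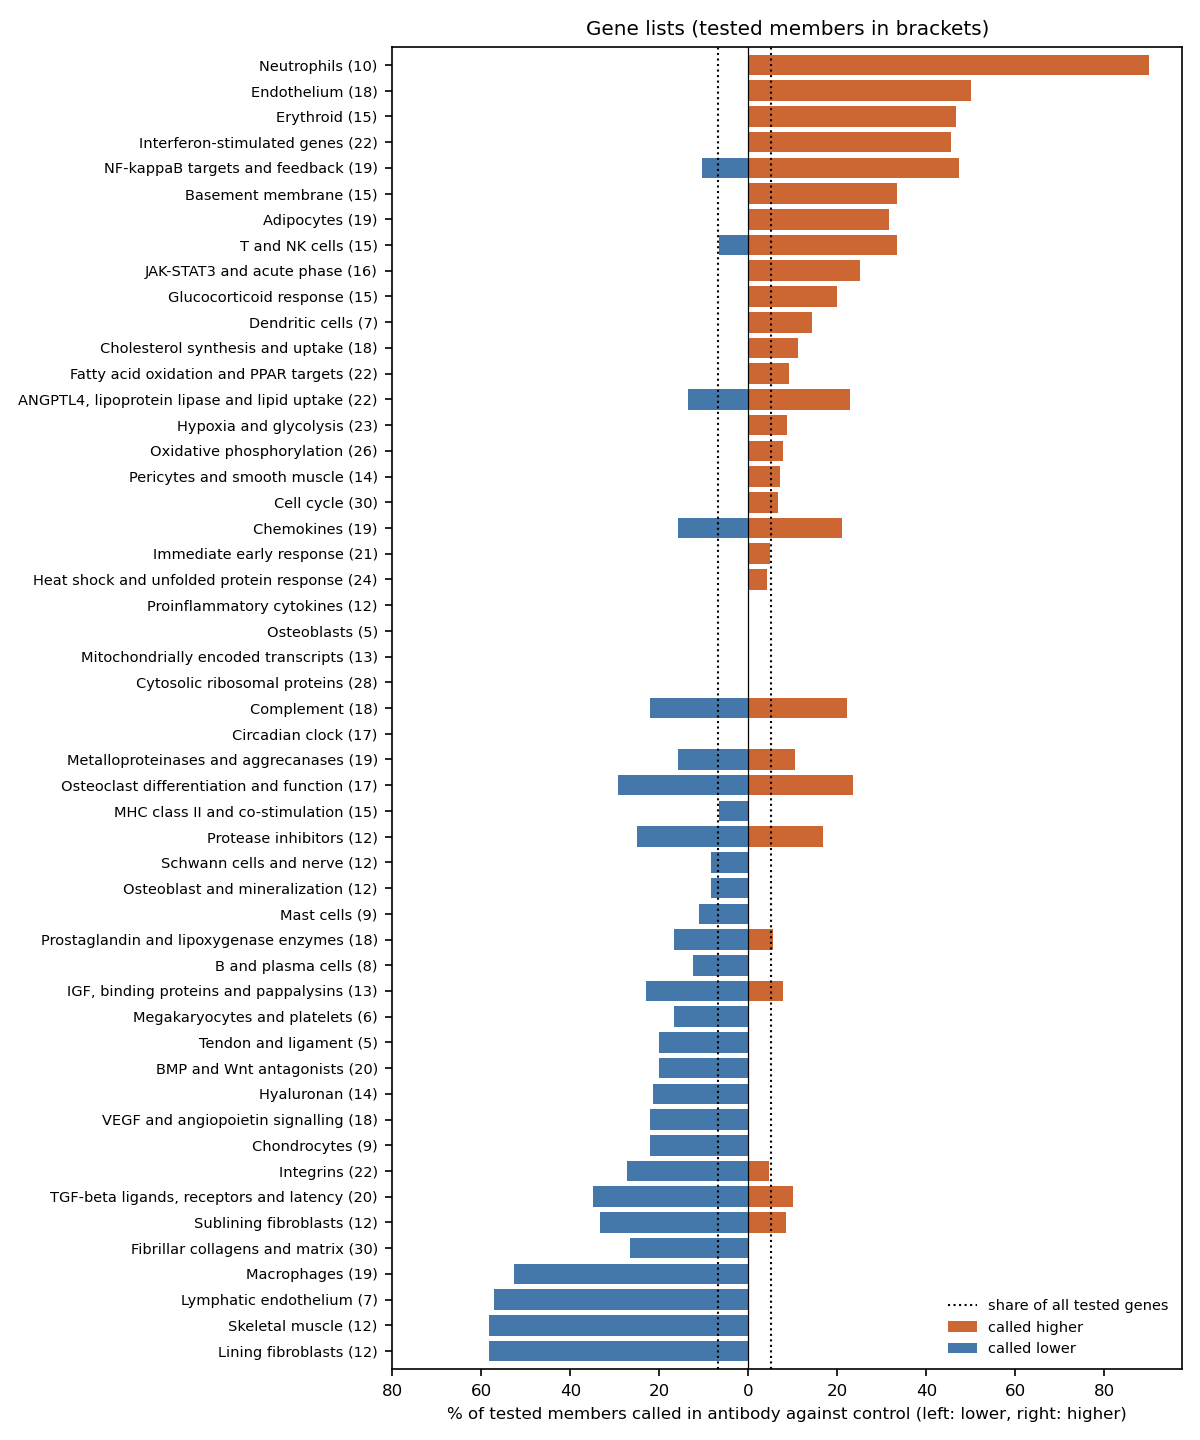
Percentage of the tested members of each gene list (number tested in brackets, lists with 5 or more) called higher (orange, to the right) and lower (blue, to the left) in antibody-treated arthritis against control, by edgeR's quasi-likelihood test, with dotted lines at the 5.17% and 6.77% of all tested genes. Interferon, endothelium and neutrophil lists lie on the higher side, with 10, 9 and 9 members, and macrophage and lining fibroblast lists on the lower side, with 10 and 7. The skeletal muscle bar had 0 calls without control replicate 2.

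Bone-resorbing genes split. Acp5, tartrate-resistant acid phosphatase, was at 22, 30.7, 27.6, 31.6 and 25 CPM in control and 42.8, 47.5, 82, 47.4 and 37.5 CPM in the antibody libraries. It was 1.87-fold higher without overlap (log2 fold change 0.91 ± 0.19, SE, edgeR adjusted p = 0.00995). Ctsk, the collagen-degrading cathepsin K of osteoclasts and fibroblasts, was at 90.1, 80.7, 98.9, 87.2 and 93.7 CPM in control and 64.2, 47.2, 48.3, 70.2 and 54.2 CPM in the antibody libraries. It was 1.59-fold lower, again without overlap (log2 fold change -0.67 ± 0.11, edgeR adjusted p = 0.00367). The AIA libraries were at 70.5, 94.5, 207, 164 and 179 CPM of Ctsk, and antibody against AIA was -1.33 (edgeR adjusted p = 0.011). Ctsk against control was not called when all 15 libraries shared 1 fit.

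Oscar, a co-stimulatory receptor of osteoclasts, was at 0 to 0.236 CPM in control and 0.4 to 1.28 CPM under treatment (log2 2.40 ± 0.59, edgeR adjusted p = 0.0205), and was not called without antibody replicate 10. Like the neutrophil genes, Oscar passes the count filter mostly through the antibody libraries, so it could enter the counts below mainly as a higher gene. Mitf, a transcription factor of osteoclasts and other cells, fell from 61–71.1 to 34.1–50.3 CPM, and Fos, part of the AP-1 factor that osteoclasts need, rose from 9.45–17 to 19.9–35.5 CPM (edgeR adjusted p = 0.00162 and 0.00405). Of 22 names in the osteoclast list 17 were tested, with 4 higher (Tnfrsf11a, Fos, Oscar and Acp5), 5 lower (Tnfrsf11b, Csf1r, Mitf, Fcer1g and Ctsk) and a median of -0.42. Tnfrsf11a encodes RANK and Tnfrsf11b its decoy osteoprotegerin. The lower count was 2 or 3 without control replicate 2, 7, 11 or 14 or antibody replicate 3, 10 or 21_8.

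Enpp1, which makes the mineralization inhibitor pyrophosphate, was the 1 called gene of 12 tested in the mineralization list. It was at 48.1, 41, 52.8, 51.7 and 49.3 CPM in control and 28.7, 29.2, 26.6, 26.7 and 26.5 CPM in the antibody libraries. The antibody values lay within a narrow band below each control value, and Enpp1 fell by 0.82 on the log2 scale (edgeR adjusted p = 0.000162). AIA libraries spread from 25.1 to 102 CPM, and the difference was not called in the fit over all 15 libraries. Osteoblast markers gave 0 calls by edgeR among 5 tested, with 1 lower at an unadjusted p under 0.05 and 1 lower by DESeq2.

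Lipid genes around ANGPTL4 were higher in part. Lpl, lipoprotein lipase, the enzyme that ANGPTL4 inhibits, was at 961, 933, 576, 1011 and 1095 CPM in control and 1683, 1298, 1633, 1263 and 1337 CPM in the antibody libraries. The groups did not overlap, and it was 1.57-fold higher (log2 fold change 0.65 ± 0.16, SE, edgeR adjusted p = 0.0209). Lipe, hormone-sensitive lipase, rose 1.55-fold from 648–949 to 1115–1306 CPM (edgeR adjusted p = 0.00514). Of 27 names in the ANGPTL4 and lipid uptake list 22 were tested, with 5 higher (Angptl4, Lpl, Lipe, Pnpla2 and Slc27a1), 3 lower (Angptl2, Itgb5 and Fn1) and a median of 0.16. The higher count was 3 without any one of the control replicates or antibody replicate 21_8 and 2 without antibody replicate 10, and the lower count was 1 without either of these antibody replicates. In the fit over all 15 libraries 0 members were higher and 2 lower.

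Adipocyte genes, some shared with that list, were higher for 6 of 19 members and lower for 0 (Lipe, Pnpla2, Lpl, Retn, Cfd and Aqp7), with a median of 0.56. This count was 1 without antibody replicate 10, 2 without antibody replicate 21_8 and 0 in the fit over all 15 libraries. The adipocyte score was 0.22 to 0.91 in the antibody libraries, -0.25 to 0.16 in control and -0.93 to 0.42 in AIA, and the part of fat content in the lipid genes was not tested. Fatty acid oxidation genes gave 2 higher of 22 (Acadl and Hadhb) and cholesterol genes 2 higher of 18 (Hmgcs1 and Insig1), beside 5.17% over all genes tested. Leaving out single libraries gave 0 to 4 and 0 to 3 higher, and the fit over all 15 libraries gave 0 for both lists.

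Epithelial sodium channel subunits were among the genes of lowest p. Scnn1b, the beta subunit, was at 8.59, 13.4, 12.2, 8.79 and 8.22 CPM in control and 36.7, 45.8, 32.4, 34 and 41.8 CPM in the antibody libraries, 3.72-fold higher (edgeR adjusted p = 7.94e-05). Scnn1g, the gamma subunit, was at 1.67, 2.95, 1.46, 1.17 and 0.678 CPM in control and 10, 18.1, 8.99, 11 and 11.7 CPM under treatment, 7.52-fold higher (edgeR adjusted p = 0.000457). Both were far from overlap, and both were also above control in AIA (1.42 and 2.31 on the log2 scale, edgeR adjusted p = 0.000118 and 0.000956).

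Other leading higher genes covered lipid mediators and metal binding. Meox1, a homeobox factor of mesenchyme, rose 5.83-fold from 1.38–3.44 to 10.2–17.5 CPM (edgeR adjusted p = 0.000173). Alox15, the 15-lipoxygenase that makes lipid mediators of resolution, rose from 0.446–1.83 to 1.97–17.7 CPM, with antibody replicate 9 far above the others (log2 2.66 ± 0.65, edgeR adjusted p = 0.0201). Mt2A and Mt1, metallothioneins that bind zinc and copper, rose 3.72-fold and 2.51-fold (edgeR adjusted p = 0.00105 and 0.00186). Cmahp rose from 0.378–1.5 to 12.1–18.2 CPM and Tmem255a from 0.678–1.72 to 3.63–7.53 CPM (edgeR adjusted p = 2.86e-05 and 0.00088).

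Other leading lower genes were Anxa8, an annexin, which fell from 1.12–9.74 to 0.192–0.602 CPM, and Galnt9, a glycosyltransferase, which fell from 2.2–7.09 to 0.384–1.69 CPM (edgeR adjusted p = 0.00334 and 0.00788). Anxa8 was at 0.686 to 18.3 CPM in AIA, and antibody against AIA was -3.95 on the log2 scale (edgeR adjusted p = 0.0215). Slc8a3, a sodium-calcium exchanger, had the lowest p on this side, with 11.7, 9.11, 8.94, 10 and 12.2 CPM in control and 3.37, 3.6, 3.36, 3.44 and 2.92 CPM under treatment. It was 3.11-fold lower, with the groups far apart (log2 -1.64 ± 0.13, edgeR adjusted p = 5.92e-05). The copine gene Cpne7, the transcription factor gene Creb5 and the membrane protein gene Tmem196 had log2 fold changes of -1.11, -0.99 and -1.27 (edgeR adjusted p = 0.000162, 0.000228 and 0.000202), and none overlapped with control.

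Chemokine genes gave 4 higher and 3 lower of 19 tested. Cxcl1, which attracts neutrophils, was at 0.558, 0.531, 0.386, 0.599 and 0.678 CPM in control and 3.37, 2.7, 2.14, 1.94 and 3.68 CPM in the antibody libraries. Its levels were low in both groups but separate, 4.99-fold apart (edgeR adjusted p = 0.000357). Ccl5, a T cell and monocyte attractant, rose from 0.693–3.04 to 3.93–7 CPM, and Cxcl13, the B cell attractant, fell from 114–189 to 25.2–96.4 CPM (edgeR adjusted p = 0.0091 and 0.0167). Cytokines of the proinflammatory list gave 0 calls by edgeR among 12 tested (19 names), with a median of -0.20. At an unadjusted p under 0.05, 1 was higher and 1 lower, and DESeq2 called 1 in each direction. Its 2 members with the highest average counts were Csf1 at 151 to 174 CPM in control and 114 to 180.2 under treatment and Il33 at 119 to 174 and 143 to 177 (edgeR adjusted p = 0.186 and 0.613).

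Skeletal muscle genes were lower for 7 of 12 tested members and higher for 0, with a median of -6.69, and the direction followed control replicate 2. Myh4, a fast myosin heavy chain, was at 2450, 1.74, 4.99, 0 and 0.367 CPM in control and 2.17, 0.27, 0.032, 0 and 0 CPM in the antibody libraries. The other 4 controls overlapped with the antibody libraries, and without control replicate 2, or without any one antibody replicate, 0 members were called. The 4 further muscle genes that met the rule for large change without overlap were Cacng1, Nrap, Cacna1s and Apobec2. Cacng1 was called in each of the 10 fits that left out 1 library, but not in the fit over all 15 libraries. Without control replicate 2 its controls were at 2.91 to 6.49 CPM, against 0.39 to 1.08 in the antibody libraries. Without control replicate 2 the controls of Nrap were at 1.07 to 2.73 CPM, against 0.285 to 0.608 in the antibody libraries. Cacna1s was not called without antibody replicate 9, 10 or 21_8, and Apobec2 was not called without control replicate 2 or without any one antibody replicate. The part of adherent muscle tissue in these values was not tested.

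Several lists showed few or no calls beside the 11.9% over all genes. Cell cycle genes gave 2 higher of 30, Mki67 and Mcm5, with 9 higher at an unadjusted p under 0.05, 7 by DESeq2 and 5 without antibody replicate 21_8. Mki67, a marker of dividing cells, rose by 1.21 ± 0.28 with overlap (edgeR adjusted p = 0.0167). The AIA libraries had 4.33 to 29.5 CPM of Mki67 against 2.66 to 8.46 under treatment and 1.81 to 3.42 in control. Cytosolic ribosomal proteins gave 0 of 28, circadian clock genes 0 of 17 and mitochondrially encoded transcripts 0 of 13 by edgeR. At an unadjusted p under 0.05, edgeR gave 1 higher ribosomal gene, 1 lower clock gene and 0 mitochondrial transcripts, and DESeq2 called 0, 1 lower and 0 of them. MHC class II genes gave 1 lower of 15, oxidative phosphorylation 2 higher of 26, hypoxia and glycolysis 2 higher of 23, and pericytes 1 higher of 14. For oxidative phosphorylation 14 were higher at an unadjusted p under 0.05, 7 by DESeq2 and 11 without antibody replicate 3.

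The AIA group helps to place what remained under treatment, with the reservation that AIA against control and antibody against control share their 5 control libraries. In the 15-library fit, AIA against control gave 817 genes higher (5.09%) and 553 lower (3.45%) of 16046, in all 8.54%. Antibody against control gave 543 (3.38%) and 748 (4.66%) there, in all 8.05%, and antibody against AIA 294 (1.83%) and 641 (3.99%), in all 5.83%. For C3, Lcn2, Ackr1, Selp, Scnn1b, Alas2, Prg4, Grem1, Cd5l, Cpne7 and Colgalt2, both adjuvant groups differed from control in the same direction and antibody against AIA was not called. For Dcn, Pdpn, Pdgfra, Tgfbi, Comp, Gpnmb, Itga10 and Mmp16, AIA against control was not called and the antibody group was lower than both other groups. This holds for groups, and single AIA libraries overlapped with the antibody libraries for Pdpn and Tgfbi. Tgfbi was at 215, 228, 799, 416 and 545 CPM in AIA replicates 5, 13, 18, 19 and 23, against 160.1 to 265 CPM in the antibody libraries. Pdgfra, for example, differed by -0.11 between AIA and control and by -0.89 between antibody and AIA (edgeR adjusted p = 0.799 and 0.0187), and Dcn was -0.17 and -0.85 (edgeR adjusted p = 0.587 and 0.0124). For Comp the values were 0.61 and -2.28 (edgeR adjusted p = 0.54 and 0.0222). Ubd and Tap1 were above control in AIA and higher again in the antibody group.

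**Figure D5:**
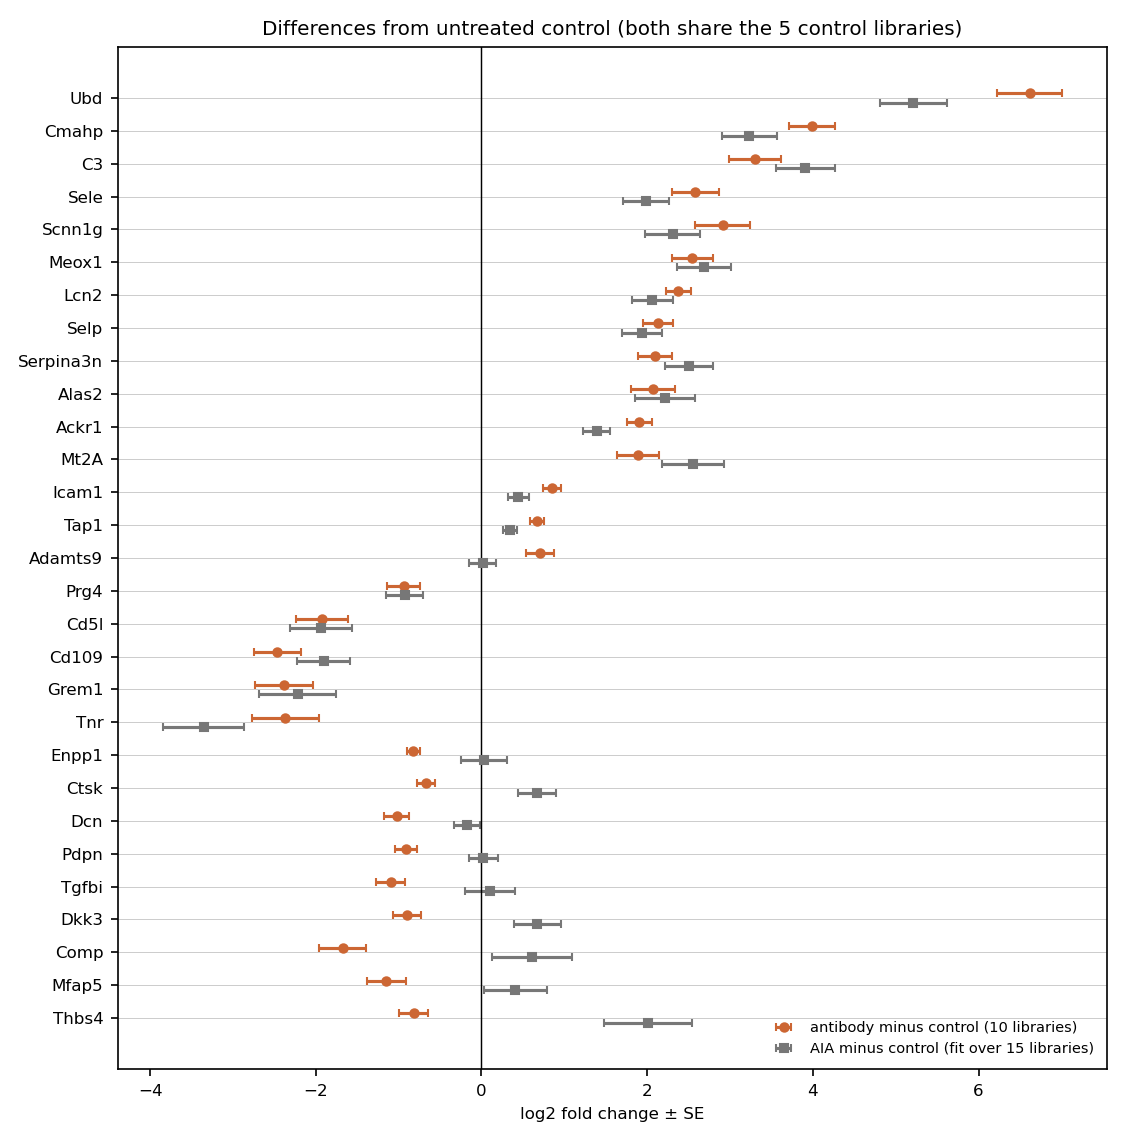
Log2 fold changes against control with their SE (x axis) of 29 named genes (rows), for antibody-treated arthritis (orange, 10 libraries) and AIA (grey, fit over 15 libraries), which share the 5 control libraries. Intervals of C3, Prg4 and Grem1 meet, those of Ctsk, Comp and Thbs4 lie on either side of 0, and those of Ubd are both far above 0.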

How the data were processed

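Synovial RNA of 15 rats (5 control, 5 AIA, 5 AIA with antibody) was sequenced from 1.3 ug of total RNA per library with a SMARTER mRNA kit, per the labels' protocols. The authors deposited raw, unnormalized counts for 23342 gene symbols and, for the same symbols, FPKM values. The deposited FPKM equals the count over a fixed gene length and the library total within 0.1% for 100% of values with a count, so the counts were tested. For aligner, counter and strandedness, the sources used here give nothing, so reads of a gene and an antisense or near-identical partner (globins, metallothioneins, Ccl21 copies) cannot be told apart. Genome builds named in the submitters' processing notes are those of mouse (GRCm38, mm10), although 20949 symbols match the rat RefSeq table of GRCr8 and 117 a synonym. Genes are therefore given by symbol, and only promoter windows, credited to RefSeq GRCr8, carry coordinates.

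The count test was edgeR 4.0.16 in R 4.3.3 (filterByExpr, which removed 7722 of 23342 symbols, TMM, quasi-likelihood F test, Benjamini-Hochberg adjustment over 15620 genes) on the 10 libraries of the comparison. AIA values come from a fit over all 15 libraries with 16046 genes. CPM values use TMM factors of all 15 libraries, log2 CPM a prior count of 2, and the standard error (SE) is that implied by the F statistic. The test was also run on counts simulated with known changes from the spread that edgeR fitted to these libraries. Such counts follow the model of the test, so they are no check of that model on real libraries. Each library is taken as 1 rat, with its group and number from its title; p-values measure the spread between these libraries. The labels name no batch. Totals of 31172215 to 34084345 counts put counting error well below that spread except at a few CPM.

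Named genes are Angptl4, the 12 largest called changes in each direction among genes that have a full symbol, an average log2 CPM of 1 or more and groups that do not overlap, the 6 of lowest p in each direction under the same conditions, and up to 4 called members of each of 53 lists or, where none was called, the 2 with the most counts. Some genes allowed by the rule are left out, and exceptions are marked; Col1a1 and Col3a1 were added after their values were seen. The lists hold 889 names (876 in the count table, 777 tested), and some names were respelled to the symbols of the table. Members, lists and rules were chosen with earlier results of these data known. Alternatives were RLE size factors, DESeq2 1.42.0, no filter, a filter of 1 CPM in 5 libraries, a test against a fold of 1.2, the fit over 15 libraries, and leaving out each library.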

Additional observations from a re-analysis of the deposited data

Results flagged for a closer look

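In 17 of 234 groups of 5 libraries, 1 library lay far from the other 4, with a gap to its neighbour above 0.71 of the whole range of the group; chance gives about 5% of groups, or 1 in 20. All values are log2 CPM unless stated, and no cause was tested. Control replicate 2 was highest for Nrap at 5.29, Cacna1s at 5.70 and Apobec2 at 4.63, and in the skeletal muscle score at 6.38. Control replicate 7 was highest for Col18a1 at 8.04, Hspg2 at 9.96 and Bcl3 at 4.83 and lowest for Grem1 at 1.46, and control replicate 11 was lowest for Lamb1 at 6.73 and Lpl at 9.17. Antibody replicate 12 was lowest for Tnfaip3 at 4.30. Antibody replicate 10 was lowest for Reck at 5.06 and Anxa8 at -1.98. Antibody replicate 9 was lowest for the immunoproteasome gene Psmb8 at 5.70 and highest for Alox15 at 4.15. Antibody replicate 21_8 was highest for Mt2A at 6.64 and lowest for the proliferation marker Mki67 at 1.45.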

How the results depend on the processing

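Of the 1865 called genes, 807 higher and 1058 lower, the test against a fold of 1.2 kept a count of 704 (282 higher, 422 lower), with 106 called list members in place of 195, because it asks for more than a difference from 0. DESeq2 called 1314 higher and 1413 lower, and the fit over all 15 libraries 543 and 748; the cause was not tested. RLE size factors and both other filters stayed within 1.5 times. Leaving out each replicate in turn gave 1198 to 1910 called genes, 522 to 926 higher and 672 to 1048 lower, and 131 to 196 called list members. The lowest counts came without antibody replicate 10 (1198, with 522 higher and 676 lower) and without antibody replicate 21_8 (1260, with 672 lower). Angptl4 was 0.87 to 1.12 on the log2 scale with each replicate left out, with edgeR adjusted p of 0.0082 to 0.024, and 1.01 in the fit over all 15 libraries with an edgeR adjusted p of 0.0601, no longer called. Over 107 printed genes, 1039 of 1070 leave-one-out values and 602 of 630 values under the other alternatives kept direction and call, 30 and 28 lost the call, 1 and 0 gained it and 0 reversed. Lpl and Oscar lost it without antibody replicate 10, Cacna1s in 3 of 10 such fits, Apobec2, Myh4 and Ckm in 6 and Bcl3 in 7. The fit over all 15 libraries lost Lpl, Lipe, Enpp1, Hp, Ctsk, Fos, Dkk3, Tnc, Thbs4, Cacng1, Nrap, Cacna1s and Apobec2 among others. Among lists with 1 to 3 called members, oxidative phosphorylation went from 2 to 11 higher without antibody replicate 3 and cell cycle from 2 to 5 without antibody replicate 21_8, and the others moved by at most 2 in either direction. No paired analysis was possible because the groups share no replicate number. Genes at a few CPM, such as Ubd and Oscar in control, rest on few reads.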

Other observations

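Lists not described above are given here with their called members in antibody against control by edgeR's quasi-likelihood test. Over all genes tested, 5.17% were called higher and 6.77% lower. Many of these lists are short, and names that did not pass the count filter are not in the counts. Glucocorticoid response genes gave 3 higher of 15, which were Mt1, Mt2A and Glul, glutamine synthetase. Prostaglandin and lipoxygenase enzymes gave 1 higher (Alox15) and 3 lower of 18, the lower ones being the prostacyclin synthase Ptgis, the haematopoietic prostaglandin D synthase Hpgds and Alox5ap, the partner protein of 5-lipoxygenase. Chondrocyte genes gave 2 lower of 9 (Comp and the transcription factor Sox9) and tendon and ligament genes 1 lower of 5 (Thbs4). Osteoclast markers gave 2 higher (Acp5 and Oscar) and 1 lower (Ctsk) of 4 tested, out of 8 names. Of these, Oscar passes the count filter mostly through the antibody libraries. Among other cell types, B and plasma cells gave 1 lower of 8 (Cd79a), dendritic cells 1 higher of 7 (Batf3) and mast cells 1 lower of 9 (Hpgds). Platelets gave 1 lower of 6 (Pf4), Schwann cells 1 lower of 12 (Pmp22) and keratinocytes 1 lower of 3 tested, out of 13 names (Sbsn). Immediate early genes gave 1 higher of 21 (Fos) and heat shock and unfolded protein genes 1 higher of 24 (Asns, asparagine synthetase).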
